A study of Mus musculus with 18 samples.

Results

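The c35 line was examined for any response to AHR ligands in the absence of DNA binding by the receptor, as the 6 c35 arrays with TCDD or BaP against the 3 c35 arrays with DMSO. These are 9 of the 18 arrays of the series, and 45037 probe sets were compared on them, all those on the array other than the Affymetrix controls. c35 cells are a mutant derivative of Hepa-1c1c7, a mouse hepatoma line of C57BL/6 origin, and carry an AHR that cannot bind DNA. They were treated for 8 hr with 5 nM of the dioxin TCDD, with 5 µM of the combustion product benzo[a]pyrene (BaP) or with the DMSO vehicle alone, with 3 biological replicates each. The other 9 arrays hold wild-type Hepa-1c1c7 cells under the same 3 treatments, with no TCDD dose in their labels, and served as the reference for what the ligands do when the receptor is intact. c35 is 1 line, so that the effect of the receptor mutation and any other difference between the lines cannot be told apart.

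AHR, the aryl hydrocarbon receptor, is held in the cytosol by chaperones until a ligand reaches it. On binding dioxins or polycyclic aromatic hydrocarbons it moves to the nucleus, pairs with ARNT and binds a short DNA motif, which raises transcription of a battery of genes for the oxidation and conjugation of foreign chemicals, with Cyp1a1 as the best known. The receptor is also known to act through partner proteins without contacting its own motif, and a line whose receptor cannot bind DNA is a setting in which such actions could be seen.

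No probe set passed the test in c35 cells (limma, adjusted p below 0.1 with no minimum change). For either ligand against DMSO 0 of 45037 probe sets were called (0%), with a lowest adjusted p of 0.93 from limma, and 2376 (5.28%) had an unadjusted p below 0.05, of which 950 (2.11%) were higher and 1426 (3.17%) lower with ligand. The same model called 286 probe sets (0.635%) in wild-type cells at an adjusted p below 0.05 and above 1.5-fold, 175 higher (0.389%) and 111 lower (0.246%). Wild-type DMSO replicate 1 stood apart from its group, with 876 probe sets more than 0.5 from the group mean. Without it 153 were higher and 44 lower, and without wild-type DMSO replicate 2 the count was 638. The lines were called as different in their ligand response at 238 probe sets (0.528%), 188 with a higher (0.417%) and 50 with a lower response (0.111%) in wild-type cells. In c35 cells the median size of the log2 fold change was 0.067, and 9 probe sets differed by more than 1.5-fold, 4 of them higher and 5 lower with ligand, and 0 by more than 2-fold.

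The intervals show how large a response these arrays could have missed. The 95% interval of the pooled log2 fold change lay wholly within 1.5-fold for 44468 probe sets (98.7%) and within 2-fold for 99.98%, with a median half-width of 0.20 on the log2 scale. With the 9 c35 arrays fitted alone the share within 1.5-fold was 99.2%. In wild-type cells, where 286 probe sets were called, the share within 1.5-fold was 95.5%. A high share thus does not by itself show that no gene responded.

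Taken one at a time, the ligands gave the same count of calls. TCDD against DMSO gave 0 calls (0%; lowest adjusted p of 0.963 from limma) and 2244 probe sets (4.98%) with an unadjusted p below 0.05, 2.04% of all higher and 2.94% lower. BaP against DMSO also gave 0 calls (0%; lowest adjusted p of 1 from limma) and 1827 such probe sets (4.06%), 1.65% higher and 2.41% lower. Both comparisons use the same 3 DMSO arrays, so that their fold changes are not independent of each other. TCDD and BaP set directly against each other, without the DMSO arrays, gave 0 calls (0%; lowest adjusted p of 1 from limma) and 1168 probe sets (2.59%) with an unadjusted p below 0.05, as many higher as lower (584 or 1.3% each). The 95% interval of TCDD minus BaP lay within 1.5-fold for 97.8% of probe sets.

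Some arrays stood apart from the rest of the c35 arrays. BaP replicate 2 stood furthest from the others: the SD over probe sets of its deviations from its group mean was 0.143, against 0.103 to 0.123 on the other c35 arrays, and its Actb 3′ signal exceeded the 5′ signal by 0.53 on the log2 scale, against 0.30 to 0.43. DMSO replicates 1 and 2 resembled each other more than either resembled DMSO replicate 3, with loadings of 0.57 and 0.55 on the second principal component, where DMSO replicate 3 was at -0.13. Correlations between c35 arrays were as high between groups (median r = 0.9968 over 27 pairs) as within them (0.9967 over 9 pairs), given here as a description across probe sets. The Actb 3′ minus 5′ difference was 0.39 ± 0.05 with DMSO (SD, n = 3) and 0.37 ± 0.09 with ligand (SD, n = 6; exact permutation p = 0.655 two-sided, 0.982 adjusted over 3 such values, where 0.0119 is the smallest that 84 splits allow). The same difference for Gapdh had an exact permutation p of 1. The median signal was 5.643 ± 0.004 with DMSO and 5.632 ± 0.007 with ligand (exact permutation p = 0.0476, 0.143 adjusted). Of the hepatocyte markers 12 of 15 were measured in c35 cells, with Krt8 at a log2 signal of 13.73, Afp at 11.96 and Alb at 11.15, while Ahsg (5.41) and Fgb (4.98) were below the median probe set. Genes usual in other cell types were mixed, from 3.38 (Postn) to 13.64 (Dcn) for 8 stromal genes and from 2.87 (Ptprc) to 12.03 (Csf1r) for 7 immune genes. The 6 endothelial genes ran from 3.02 (Tek) to 6.09 (Kdr), with 1 above the median probe set. The summed signal of each list overlapped between DMSO and ligand arrays except for the endothelial genes (6.97 to 7.02 against 7.07 to 7.20). The part of these genes in any result was not tested, and in such bulk samples fewer cells of a type and less RNA per cell cannot be told apart.

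Cyp1a1, the cytochrome P450 that oxidizes aromatic hydrocarbons, had the largest spread among replicates of all 45037 probe sets in c35 cells. Its log2 signal was 8.32, 8.34 and 4.87 on DMSO replicates 1, 2 and 3, 5.39, 5.97 and 6.11 with TCDD, and 6.23, 5.25 and 8.32 with BaP. DMSO replicates 1 and 2 and BaP replicate 3 thus lay together near 8.3, and the other 6 arrays between 4.87 and 6.23. The within-group SD was 1.48 in c35 cells and 0.08 in wild-type cells, where the gene went from a mean of 9.73 with DMSO to 13.02 with TCDD and 13.43 with BaP. The pooled log2 fold change in c35 cells was -0.96 (95% interval -2.18 to 0.25, adjusted p = 0.938 from limma) and in wild-type cells 3.49 (2.27 to 4.70). Without c35 DMSO replicate 3 it was -2.12, without DMSO replicate 1 -0.39, and without DMSO replicates 1 and 2 together 1.34, so that its sign rests on those arrays.

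Tiparp, an ADP-ribosyltransferase that restrains AHR signalling, followed the same arrays. Its log2 signals were 10.36, 10.30 and 9.34 with DMSO, 9.38, 9.24 and 9.25 with TCDD, and 9.36, 9.13 and 10.42 with BaP. All 3 of its probe sets were among the 9 with the largest within-group SD in c35 cells, and on each of them DMSO replicates 1 and 2 and BaP replicate 3 were the 3 highest arrays. The pooled log2 fold change was -0.54 (95% interval -0.97 to -0.10, unadjusted p = 0.0175, adjusted p = 0.932 from limma), 0.12 without DMSO replicates 1 and 2, and 2.52 in wild-type cells. Cyp1b1, a P450 of aromatic hydrocarbons and oestrogens, was at 6.09, 5.86 and 5.02 with DMSO, 4.88, 5.18 and 5.44 with TCDD, and 5.39, 5.37 and 5.98 with BaP. This probe set was again highest on those 3 arrays, which was not so for the other probe sets of Cyp1b1, with a pooled log2 fold change of -0.28 (-0.67 to 0.10) against 0.98 in wild-type cells.

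**Figure D1:**
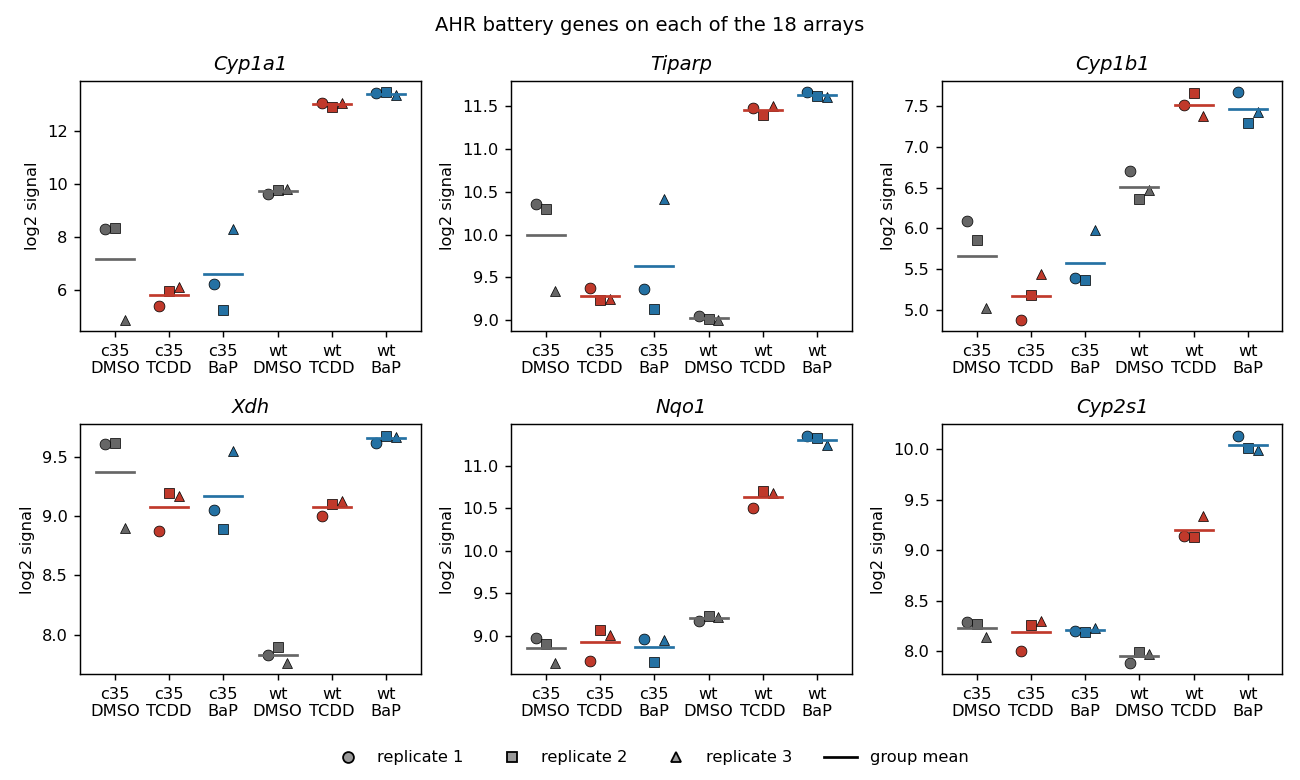
Log2 signal (y axis) of 6 genes of the AHR battery in the 6 groups (x axis), where each point is 1 array, the symbol gives its replicate number and the bar is the mean of 3 arrays. In c35 cells Cyp1a1, Tiparp, Cyp1b1 and Xdh are high on DMSO replicates 1 and 2 and BaP replicate 3, while Nqo1 and Cyp2s1 stay within 0.39 and 0.29 over the 9 arrays.

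The remaining members of the battery lay closer together. Xdh, the xanthine dehydrogenase of purine breakdown, was at 9.60, 9.61 and 8.90 with DMSO, 8.87, 9.20 and 9.17 with TCDD, and 9.05, 8.89 and 9.55 with BaP, again highest on DMSO replicates 1 and 2 and BaP replicate 3. Nqo1, a quinone reductase, ran from 8.68 to 8.97 with DMSO and from 8.69 to 9.07 over the 6 ligand arrays (median 8.96). Its groups overlapped, and its pooled log2 fold change was 0.05 (95% interval -0.13 to 0.22) where wild-type cells gave 1.76 (1.58 to 1.94). Aldh3a1, an aldehyde dehydrogenase, gave 0.01 (-0.17 to 0.20) against 1.77 in wild-type cells, and the P450 gene Cyp2s1 -0.04 (-0.18 to 0.11) against 1.67. For these 3 genes the interval in c35 cells lay within 1.5-fold of no change, and the difference in response between the lines had adjusted p-values of 8.74e-08, 8.74e-08 and 4.48e-09 from limma. Ahrr, the AHR repressor, and Cyp1a2 had low signals in c35 cells (at most 3.12 and 5.51) and log2 fold changes of 0.11 and 0.12. In wild-type cells neither passed the test, at 0.13 and 0.10.

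Of the 11 genes listed for the battery 9 were measured, 0 were called in c35 cells and 7 were called in wild-type cells, where 121 of all 18193 genes were (0.665%). The median pooled log2 fold change of the 9 was -0.04 in c35 cells, against 0.00 over all 18193 genes, and 1 had an unadjusted p below 0.05, Tiparp, which was lower, where 901 of all genes did (4.95%), 403 higher (2.22%) and 498 lower (2.74%). The receptor gene itself differed little. Ahr was at 9.59, 9.41 and 9.57 with DMSO and between 9.24 and 9.59 over the 6 ligand arrays (log2 fold change -0.08, 95% interval -0.22 to 0.05). Its partner Arnt was between 7.01 and 7.25 on all 9 arrays (0.01, -0.16 to 0.18).

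The other genes named in the paper can be read the same way, though the study picked them from these samples, so that they are not independent evidence of a direction. Tnfaip2, a gene induced by tumour necrosis factor, was at 9.62, 9.67 and 9.34 with DMSO and at 9.14 to 9.54 over the ligand arrays (median 9.24), the highest of which was BaP replicate 3. Its pooled log2 fold change was -0.27 (95% interval -0.44 to -0.11, unadjusted p = 0.00243, adjusted p = 0.93 from limma), opposite in sign to the 2.17 of wild-type cells. Hspa4l, an HSP110-type chaperone, was at 10.19, 10.19 and 10.01 with DMSO and at 9.60 to 10.22 with ligand, with a log2 fold change of -0.21 (-0.39 to -0.02) against 0.88. Adh7, an alcohol dehydrogenase that oxidizes retinol, gave -0.09 (-0.36 to 0.17) against 1.46, and the lymphatic growth factor gene Vegfc -0.06 (-0.19 to 0.07) against -0.66. Of the 13 genes named in the paper 12 were called in wild-type cells (0.665% of all genes were) and 0 in c35 cells, where their median log2 fold change was -0.09 and 3 had an unadjusted p below 0.05, all lower with ligand (Tiparp, Tnfaip2 and Hspa4l). Of all genes 2.74% were lower at that level. Tiparp, Tnfaip2 and Hspa4l were all highest on DMSO replicates 1 and 2 and BaP replicate 3.

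**Figure D2:**
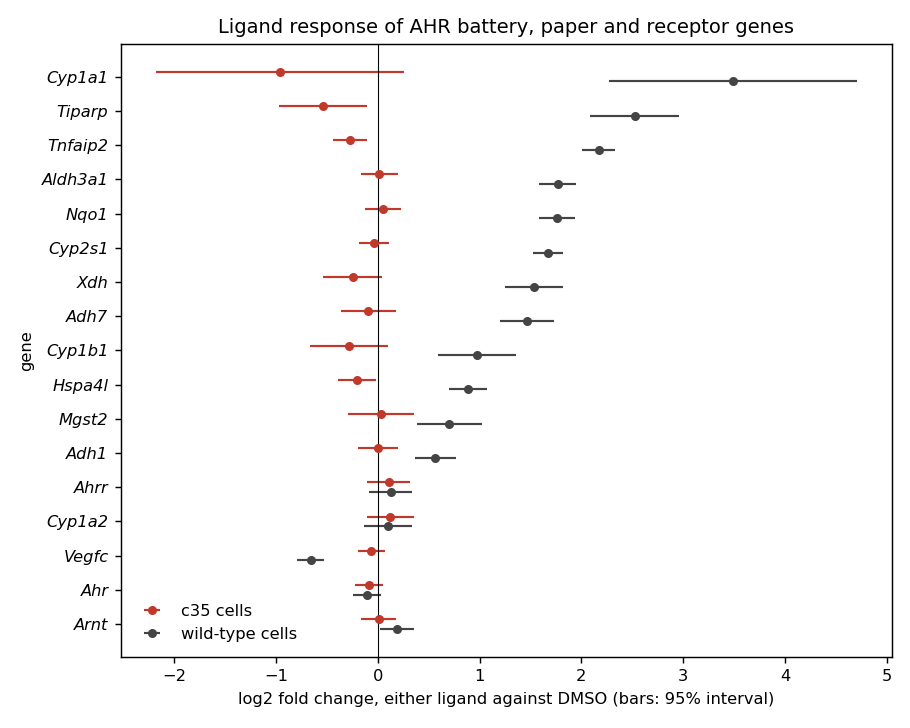
Pooled log2 fold change of either ligand against DMSO (x axis) with its 95% interval for 17 genes (y axis) in c35 cells (red, 6 ligand and 3 DMSO arrays) and wild-type cells (grey, 6 and 3 arrays). The c35 estimates run from -0.96 to 0.12, and Cyp1a1 has the widest interval in both lines because the spread is estimated over all 18 arrays.

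The promoters of Cyp1a1, Tiparp and Cyp1b1 are printed with that of Nqo1, since the first 3 genes shared the pattern over c35 arrays and Nqo1, also raised by ligands in wild-type cells, did not. Each runs from 250 bases before to 50 bases after the annotated start, 5′ to 3′ on the gene's strand, from RefSeq (GRCm38.p6), and capitals mark GCGTG, the core of the motif that AHR and ARNT bind, or its reverse complement CACGC. The windows are chr9:57697363-57697662 on the plus strand for Cyp1a1, chr3:65528197-65528496 on the plus strand for Tiparp, chr17:79715012-79715311 on the minus strand for Cyp1b1 and chr8:107403156-107403455 on the minus strand for Nqo1.
Cyp1a1: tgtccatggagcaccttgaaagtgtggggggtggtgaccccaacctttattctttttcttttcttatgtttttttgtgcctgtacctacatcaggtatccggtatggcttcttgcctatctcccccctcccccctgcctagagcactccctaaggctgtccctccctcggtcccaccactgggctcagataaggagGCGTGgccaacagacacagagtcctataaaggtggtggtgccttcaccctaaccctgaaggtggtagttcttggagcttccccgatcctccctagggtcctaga
Tiparp: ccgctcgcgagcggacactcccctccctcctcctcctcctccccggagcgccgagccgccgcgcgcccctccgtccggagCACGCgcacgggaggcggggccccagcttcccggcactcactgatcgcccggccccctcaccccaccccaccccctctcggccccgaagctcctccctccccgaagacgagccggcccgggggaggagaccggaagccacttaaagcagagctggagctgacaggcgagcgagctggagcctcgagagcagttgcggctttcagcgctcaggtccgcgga
Cyp1b1: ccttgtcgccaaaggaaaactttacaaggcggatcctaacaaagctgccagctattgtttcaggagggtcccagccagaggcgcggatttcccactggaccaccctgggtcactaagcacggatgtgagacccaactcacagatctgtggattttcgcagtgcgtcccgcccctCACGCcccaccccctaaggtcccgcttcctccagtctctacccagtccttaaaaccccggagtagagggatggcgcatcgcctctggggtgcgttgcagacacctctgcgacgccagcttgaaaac
Nqo1: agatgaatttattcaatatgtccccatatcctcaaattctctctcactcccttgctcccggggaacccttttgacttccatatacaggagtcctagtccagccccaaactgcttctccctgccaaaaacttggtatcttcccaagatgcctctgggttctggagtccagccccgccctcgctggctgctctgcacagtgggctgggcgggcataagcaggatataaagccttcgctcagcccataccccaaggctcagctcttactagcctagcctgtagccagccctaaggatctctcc
The core was present 1 time in each of the first 3 windows and 0 times in that of Nqo1. It was present in 10639 of 32851 windows of the same length (32.4%), so that a match by itself says little, and a window without it says only that these letters are absent there.

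The arrays on which Cyp1a1 and Tiparp were high were then read across all genes that the ligands raise in wild-type cells. The 175 probe sets raised in wild-type cells were chosen on the wild-type arrays, and their median pooled log2 fold change was 0.79 there and -0.09 in c35 cells, against -0.01 over all probe sets. In c35 cells 129 of them were lower with ligand and 46 higher, 0 were called (0% of all probe sets were), and 21 were lower and 4 higher at an unadjusted p below 0.05 (12% and 2.29%, against 3.17% and 2.11% of all probe sets). The c35 interval excluded the wild-type estimate for 174 of the 175 (10261 of all 45037 probe sets), and 136 were called for the difference between the lines (238 of all probe sets, 0.528%). The 175 were chosen for a large wild-type response, which enters both counts, and the first count takes the wild-type estimate as free of error. By ligand the medians in c35 cells were -0.10 with TCDD (26 lower and 3 higher at that level) and -0.08 with BaP (9 lower and 2 higher), from comparisons that share the DMSO arrays. The exception among the 175, named here after its values were seen, was a probe set of Apela, a secreted peptide ligand of the apelin receptor, at 4.69, 4.24 and 5.0 with DMSO, 5.11, 5.55 and 5.30 with TCDD, and 5.10, 5.11 and 4.71 with BaP. Its groups overlapped at BaP replicate 3, its signal was low, and its log2 fold change was 0.50 in c35 cells (95% interval 0.21 to 0.79, adjusted p = 0.93 from limma) and 0.77 in wild-type cells.

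**Figure D3:**
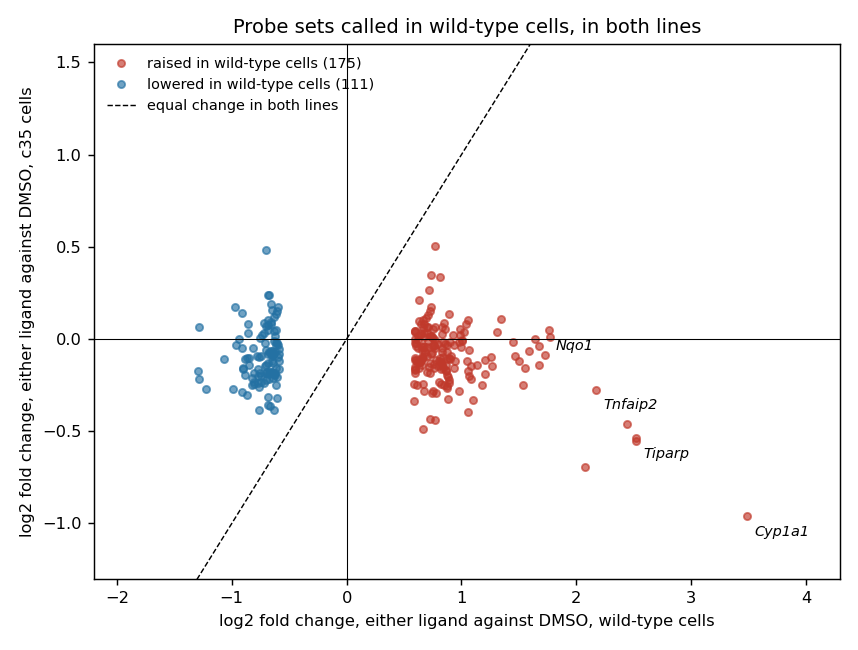
Pooled log2 fold change of either ligand against DMSO in c35 cells (y axis) against that in wild-type cells (x axis) for the 286 probe sets called in wild-type cells, each a point, with a dashed line where both would be equal. Most points lie near 0 on the y axis, and among those furthest below it are Cyp1a1 (-0.96) and Tiparp (-0.54 for the probe set of highest signal), which lie far to the right.

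For the 175 probe sets the median deviation from the mean of the 9 c35 arrays was 0.13 on DMSO replicate 1, 0.10 on DMSO replicate 2 and 0.11 on BaP replicate 3. It was -0.06 on DMSO replicate 3, -0.10, -0.04 and -0.01 on the TCDD arrays, 0.01 on BaP replicate 1 and -0.14 on BaP replicate 2. For all probe sets these medians were within 0.01 of 0. DMSO replicates 1 and 2 and BaP replicate 3 were the 3 highest of the 9 arrays for 59 of the 175 probe sets (33.7%), against 1092 of all probe sets (2.42%). These arrays were picked after Cyp1a1 and Tiparp had been seen, and without those genes the count was 55 of 171 (32.2%). The same 3 arrays were the 3 lowest for 2 of the 175.

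The 59 probe sets stand for 39 named genes. Beyond the genes above they include Bdkrb2, the bradykinin B2 receptor, at 8.58, 8.57 and 8.43 on DMSO replicates 1 and 2 and BaP replicate 3 and at 7.55 to 8.06 on the other 6 arrays. Nrg1, a growth factor for ERBB receptors, was at 8.12, 8.05 and 8.12 against 7.24 to 7.90, and Lif, a cytokine of the interleukin 6 family, at 8.27, 8.34 and 8.20 against 7.73 to 7.82. Ier3 (11.70, 11.74 and 11.72 against 11.15 to 11.46), the stress-induced Ndrg1, the transcription factor genes Klf9 and Nr4a2, and Cpox of haem synthesis were ordered likewise. Promoter windows were matched for 32 of the 39 genes, 23 of which held the core motif (71.9%). For the other 75 genes raised in wild-type cells 61 were matched, 34 of which held it (55.7%), and of 27025 genes in all 35.2% did. A gene counted here if any of its windows held the core, unlike the share per window above. The 27025 genes were not limited to those measured here, and the 39 were picked by their order on these arrays. Whether the motif has a part in that order was not tested.

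**Figure D4:**
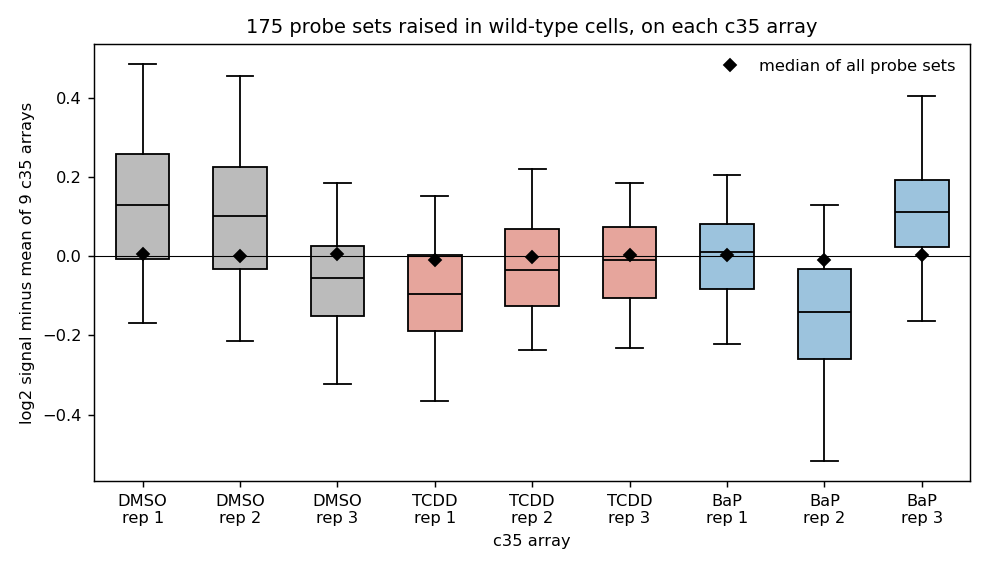
Log2 signal minus the mean of the 9 c35 arrays (y axis) for the 175 probe sets raised by the ligands in wild-type cells, on each c35 array (x axis), where boxes span the quartiles, lines are medians, whiskers reach the 5th and 95th percentiles and diamonds are the median of all probe sets. The boxes of DMSO replicates 1 and 2 and BaP replicate 3 sit highest, with medians of 0.13, 0.10 and 0.11, and that of BaP replicate 2 lowest at -0.14.

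Leaving out DMSO replicates 1 and 2 together brought the median of the 175 to 0.04, and leaving out BaP replicate 3 as well gave 0.00. These 3 arrays were picked because such genes were high on them, so that both medians follow in part from the choice. DMSO replicate 3 was then the only control. Leaving out DMSO replicate 3 alone gave a median of -0.14 and brought the number lower at an unadjusted p below 0.05 from 21 to 61. That number was 4 without DMSO replicate 1 or 2 alone, and 12 or 43 without BaP replicate 2 or 3 alone. The Actb 3′ minus 5′ difference was 0.43 on both DMSO replicates 1 and 2, next to the 0.53 of BaP replicate 2, and 0.30 on BaP replicate 3, the lowest of the 9. What set these arrays apart was not tested. The 111 probe sets lowered in wild-type cells had a median of -0.10 in c35 cells, with 84 lower and 27 higher with ligand, and 2 of them were highest on the 3 arrays (1.80%, against 2.42% of all probe sets) and 9 lowest (8.11%, against 2.09%). The c35 interval excluded the wild-type estimate for 108 of these 111 (10261 of all 45037 probe sets). For the difference between the lines 29 were called (238 of all probe sets, 0.528%), and 0 were called in c35 cells. The 111 were chosen for a large wild-type response, which enters both the 108 and the 29. The 108 also takes the wild-type estimate as free of error, which the 29 does not. When the sets were called without wild-type DMSO replicate 1, an alternative chosen after seeing the data, the 153 raised probe sets had a median of -0.10 in c35 cells and 56 were highest on the 3 arrays (36.6%). The 44 lowered ones had a median of -0.06, with 0 highest and 7 lowest on the 3 arrays (15.9%).

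Single genes that separated ligand from DMSO arrays were few and small in effect. The 6 ligand arrays all lay above or all below the 3 DMSO arrays for 1290 probe sets (2.86%), 630 higher (1.4%) and 660 lower (1.47%). Ptgds, a prostaglandin D2 synthase, was at 6.56, 6.54 and 6.62 with DMSO, 7.01, 6.95 and 6.90 with TCDD, and 6.97, 6.96 and 6.95 with BaP. The gap between the groups was wider than the range within either, and the pooled log2 fold change was 0.38 (95% interval 0.23 to 0.54, unadjusted p = 4.95e-05, adjusted p = 0.93 from limma). Its other probe set gave -0.02. Ptgds had the lowest unadjusted p of all 18193 genes. Like the other genes of this kind, it was named because its groups did not overlap, so that the gap and the p follow in part from the choice. Prkg2, a cGMP-dependent protein kinase, was at 4.49, 4.61 and 4.38 with DMSO and at 4.89 to 5.11 with ligand (0.48, 0.27 to 0.68). This signal is below the median probe set of the c35 arrays (the wild-type DMSO mean was 8.57), and the other probe sets of Prkg2 reached -0.03. In wild-type cells Prkg2 gave -0.24. It was named for its c35 value and passed the filter on low signal through the wild-type arrays.

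The other genes with higher signals had values between 0.27 and 0.50. Pitpnc1, a phosphatidylinositol transfer protein, was at 6.25, 6.11 and 5.47 with DMSO and at 6.33 to 6.59 with ligand (0.50), where 8 other probe sets reached down to -0.15. Without DMSO replicate 3 its value was 0.26. Saa3, an acute-phase protein, was at 8.19, 8.29 and 8.30 with DMSO and at 8.30 to 8.90 with ligand (0.35, 0.09 to 0.61). Ffar2, a receptor for short-chain fatty acids (0.33), Socs2, a suppressor of cytokine signalling (0.29), Ccdc13 (0.29), Nphs1, the nephrin of kidney podocytes (0.29), Otud7a, a deubiquitinase (0.28), and Enah, a regulator of actin (0.27), made up the 10. Their adjusted p-values ran from 0.93 to 0.932 in limma.

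Among genes with lower signals the clearest was Zc3hav1, an antiviral zinc finger protein that binds RNA. It was at 10.67, 10.65 and 10.32 with DMSO, 10.09, 10.12 and 10.12 with TCDD, and 10.12, 9.999 and 10.31 with BaP. DMSO replicate 3 lay just above BaP replicate 3 and DMSO replicates 1 and 2 well above all ligand arrays, and the pooled log2 fold change was -0.42 (95% interval -0.59 to -0.25, unadjusted p = 6.72e-05, adjusted p = 0.93 from limma), or -0.53 and called without DMSO replicate 3 (adjusted p = 0.036). Marf1, an RNA-binding protein known from oocytes, was at 7.01, 6.90 and 6.78 with DMSO and at 6.40 to 6.63 with ligand (-0.38). Hlf, a clock-linked transcription factor (-0.34), Dennd5b (-0.33), Zfyve1 (-0.33, with both of its probe sets lower), Fam214a (-0.32), Tatdn2 (-0.30), Lrp4, a receptor of the LDL receptor family (-0.28), Zfp644 (-0.24) and the kinesin gene Kif5c (-0.24) were the others. Hlf, Tatdn2, Lrp4 and Kif5c had positive values in wild-type cells (0.53, 0.34, 0.52 and 0.35). Since they were named for their c35 values, no test of the difference between the lines is read from them.

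**Figure D5:**
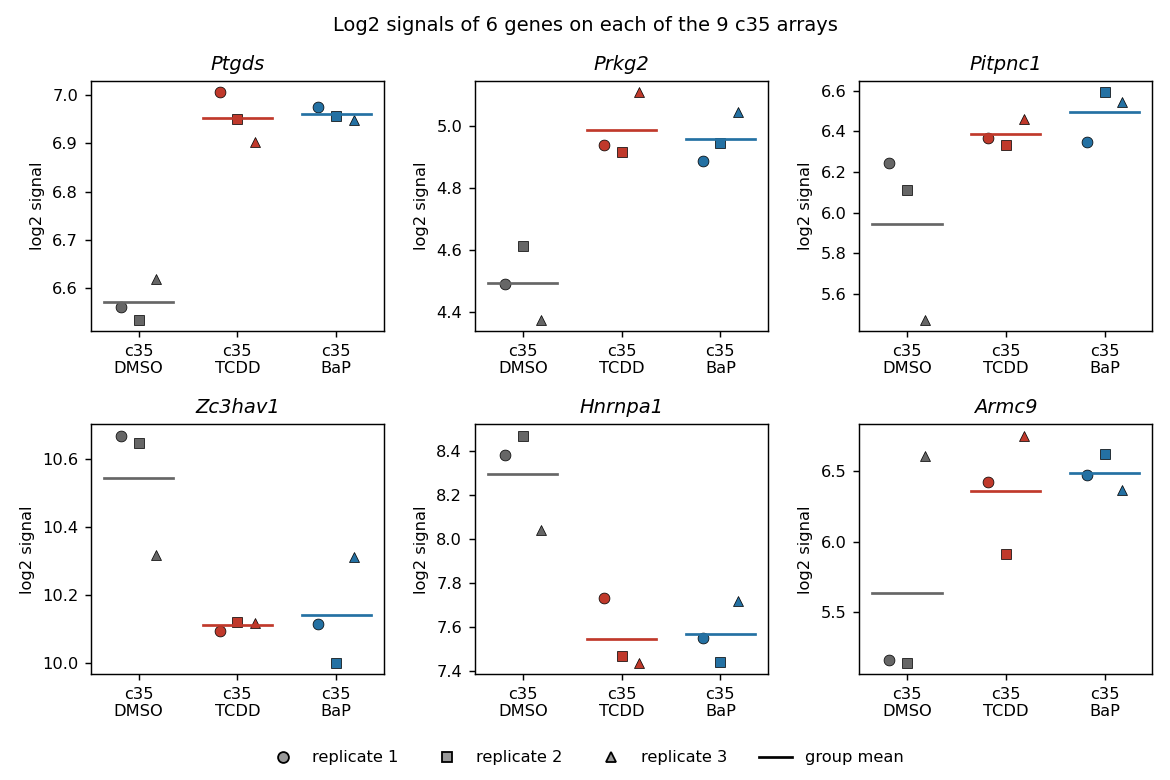
Log2 signal (y axis) on the c35 arrays of each group (x axis) for Ptgds, Prkg2, Pitpnc1, Zc3hav1, 1 of 3 Hnrnpa1 probe sets and 1 of 7 Armc9 probe sets, where each point is 1 array, the symbol gives its replicate number and the bar is the mean of 3. Ptgds and Prkg2, named because their groups did not overlap, leave a gap between DMSO and ligand arrays, while for Armc9 DMSO replicate 3 (6.61) lies among the ligand arrays.

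Of the 9 probe sets past 1.5-fold 5 belonged to named genes, and those other than Cyp1a1 were chosen here after their values were seen. Hnrnpa1, a splicing factor, had 1 probe set at 8.38, 8.47 and 8.04 with DMSO and 7.44 to 7.73 with ligand (-0.74, 95% interval -1.05 to -0.43, adjusted p = 0.93 from limma). Its other 2 probe sets, with higher signals, gave -0.09 and 0.00. This was the only probe set called when the 9 c35 arrays were fitted alone as 2 groups (adjusted p = 0.0464 from limma). Armc9, a gene of primary cilia, had 1 of 7 probe sets at 5.16, 5.14 and 6.61 with DMSO and 5.91 to 6.75 with ligand (0.78), while its probe set of highest signal gave 0.07. Nudt21, a factor in mRNA 3′ end cleavage, had 1 of 4 at 6.79, 6.56 and 7.63 with DMSO and 7.17 to 7.98 with ligand (0.66), and Tmtc3 1 of 4 at 5.63, 5.59 and 6.50 with DMSO and 6.29 to 6.96 with ligand (0.63). On the probe sets past 1.5-fold of Armc9, Nudt21 and Tmtc3, DMSO replicate 3 lay within the range of the ligand arrays. Another Armc9 probe set, at 5.47, 5.46 and 6.95 with DMSO, gave 0.42, and another of Nudt21 gave 0.38. The remaining ones ran from -0.18 to 0.07 for Armc9 and were -0.16 and 0.04 for Nudt21. Those of Tmtc3 ran from -0.19 to -0.07.

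Without DMSO replicate 3, 12 probe sets were called for either ligand, 7 higher and 5 lower, of which 9 had a symbol and came from 8 genes (Abca5, Armc9, Dync1li1, Nisch, Nudt21, Tmem30a, Tmtc3 and Zc3hav1). On DMSO replicate 3 all 12 lay nearer to the ligand mean than to the mean of DMSO replicates 1 and 2, and 8 lay within the range of the ligand arrays. These 12 were called with that array left out and not with it in the same model. Its position on them thus follows in part from the choice and is a description only. Without DMSO replicate 1 or 2 there were 0 calls.

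The spread among replicates was small for most probe sets. The within-group SD had a median of 0.12 in c35 cells and 0.13 in wild-type cells, and was larger in wild-type cells for 25427 probe sets (56.5%). Of the 40 probe sets with the largest spread in c35 cells 8 were raised by the ligands in wild-type cells (0.389% of all probe sets were). Highest on DMSO replicates 1 and 2 and BaP replicate 3 were 7 of the 40 (2.42% of all probe sets). That order splits the DMSO and the BaP arrays and so widens the within-group SD. The 7 thus follow in part from the ranking. Others of large spread had low signals on the c35 arrays, such as Slc16a12 (2.70 to 4.07, SD 0.52), a monocarboxylate transporter, Slc40a1, the iron exporter ferroportin (3.77 to 4.79, SD 0.44), Cask (4.69 to 5.95, SD 0.45), Pik3r3, Man1a, Trib2, Arfgef3 and Cyp7b1, an oxysterol hydroxylase (SD 0.41). Cyp7b1 was at 3.89, 3.35 and 2.98 with DMSO and 3.39 to 4.26 with ligand, overlapping groups with a log2 fold change of 0.52 (0.16 to 0.89). Thbs1, the matrix protein thrombospondin 1, was at 9.88 to 10.35 on 8 arrays and at 9.10 on BaP replicate 2 (SD 0.40). Taf15, an RNA-binding protein, was highest there at 6.93, against 5.64 to 6.68. N4bp2l1 (SD 0.42) and Arrdc3, an arrestin-domain protein (SD 0.39), completed the 15 genes.

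The 24 gene lists could not differ in their count of calls in c35 cells, since 0 of all 18193 genes were called. The list medians of the pooled log2 fold change lay between -0.09 and 0.12. Of 23 immediate early genes, which respond to kinase signalling without new protein synthesis, 1 had an unadjusted p below 0.05, Fosl2 (-0.19), against 4.95% of all genes. Of 18 NF-kB and inflammatory genes 1 was higher, Saa3, and 3 lower, Tnfaip2, Tnfaip3, the ubiquitin-editing inhibitor of NF-kB (-0.21), and the chemokine gene Ccl20 (-0.20), with a list median of -0.08. Of 18 antioxidant genes of the NRF2 pathway 1 was lower, the exporter gene Abcc4 at 10.86, 10.82 and 10.59 with DMSO and 10.50 to 10.60 with ligand (-0.20). Of 24 p53 targets 1 was lower, Trp53inp1 (-0.12). Each of these counts is at an unadjusted p, a level at which 2.22% of all genes were higher and 2.74% lower. The adjusted p-values of the genes named from these lists ran from 0.93 to 0.936 in limma.

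Metabolic and growth lists are given in the same way, by their members at an unadjusted p below 0.05. Of all genes 4.95% were at that level, 2.22% higher and 2.74% lower, and no list was tested against this share. Cholesterol synthesis, a pathway for which AHR actions without DNA binding have been described, had 1 of 16 members higher, Fdps, the farnesyl diphosphate synthase, at 10.93, 10.91 and 11.03 with DMSO and 11.03 to 11.19 with ligand (0.18, 95% interval 0.04 to 0.32), and a list median of 0.07. Of 16 lipid genes 1 was lower, the desaturase gene Scd1 (-0.12), and of 23 xenobiotic P450 and conjugation genes 1 was higher, Cyp2e1 (0.23). Of 16 interferon genes 2 were higher, Irf7 (0.29) and the immunoproteasome gene Psmb9 (0.26). Among 12 heat shock genes Hspa4l was lower, among 14 clock genes Clock (-0.17), and among 19 mitosis genes Cenpf (-0.14). DNA replication (21 genes), cell cycle inhibitors (16), glycolysis and hypoxia (15), the unfolded protein response (20), matrix and TGF-beta genes (16) and nuclear receptors (13) had 0 members at that level, with E2f1 (0.12), Gadd45a (0.16), Hk2 (-0.12), Hspa5 (-0.12), Ccn2 (-0.14) and Nr3c1 (-0.12) nearest to it. Among cell type markers Apoh (0.48) and Hnf4a (0.24) were higher, Col1a1 (-0.25) lower and the endothelial receptor gene Kdr (0.25) higher, while of the 7 immune genes 0 had a p below 0.05, with Itgam (-0.14) nearest to it.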

How the data were processed

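Total RNA of wild-type Hepa-1c1c7 and c35 cells was measured on 18 mouse arrays, 3 in each of 6 groups taken from the sample titles. The authors deposited log2 signals of all arrays, made by RMA per the submitters' processing notes (version not given in the sources used here), a method of background correction, quantile normalization and probe summary that removes a shift shared by all probe sets. The values were used as deposited.

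The table holds 45101 probe sets, of which 64 are controls and were not used. Symbols came from the platform annotation: 34945 probe sets had 1 symbol, 932 several and 9160 none, and a probe set with several named no gene. The 6 group means were fitted in R 4.3.3 by limma 3.58.1, with eBayes and an intensity trend, and Benjamini-Hochberg adjustment over 45037 probe sets. The pooled comparison is the mean of the TCDD and BaP means minus DMSO. A call in c35 cells required an adjusted p below 0.1, and one in wild-type cells or for the difference between lines one below 0.05 together with more than a 1.5-fold change. A gene is represented by its brightest probe set (mean of the 18 arrays), giving 18193 genes. Named are the paper's, battery and receptor genes, the 10 highest and 10 lowest pooled values among genes whose groups do not overlap and whose mean over 18 arrays is above the median probe set, the 15 of largest within-group SD, genes called in c35 cells (there were none), and for each list the member of lowest p. Single array values were compared by exact permutation. The members, the 24 lists (389 members, 357 measured) and the tests were chosen with earlier results of these data known. Replicate numbers are not stated to pair cultures and were not used as a block. No arrays held identical values. Precision is limited by having 3 arrays a group, and the model was first tested on simulated data.

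The alternatives were the c35 arrays alone in 3 or 2 groups, an F test, other call rules, no trend, a robust prior, array weights, quantile normalization, median centring, a signal filter, 1 value per gene, an RNA quality covariate (Actb 3′ minus 5′), a replicate block and each c35 array left out. Leaving out wild-type arrays, DMSO replicates 1 and 2, those and BaP replicate 3, and single arrays in the fit of c35 arrays alone were chosen after seeing the data. Promoters are from RefSeq (GRCm38.p6). Figures were drawn with matplotlib 3.10.9.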

Additional observations from a re-analysis of the deposited data

Results flagged for a closer look

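Among the 6 ligand arrays of c35 cells, taken as 1 group, single arrays lay far from the others for 7 of 68 named genes, where chance gives about 1 in 20. Of these Cyp1a1, Tiparp, Thbs1 and N4bp2l1 were among the genes named for their large spread on the c35 arrays, to which that rate does not apply. BaP replicate 3 was far above the others for Cyp1a1 (8.32), Tiparp (10.42) and Tnfaip2 (9.54). TCDD replicate 1 was far below for Cyp2s1 (8.01) and N4bp2l1 (4.24). BaP replicate 2 was far below for Thbs1 (9.10) and Fdps (11.03), and it also stood out by the SD of its deviations (0.143) and its Actb 3′ minus 5′ difference (0.529). What set these arrays apart was not tested.

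The response to either ligand differed between wild-type and c35 cells, by a test of the difference itself in limma, at 238 probe sets and at 20 of the 68 named genes. As wild-type minus c35 log2 fold change the difference was 4.45 for Cyp1a1, 3.06 for Tiparp, 2.44 for Tnfaip2, 1.78 for Xdh, 1.75 for Aldh3a1, 1.71 for Nqo1, 1.71 for Cyp2s1, 1.71 for Arrdc3, 1.56 for Adh7, 1.26 for Cyp1b1 and 1.09 for Hspa4l. It was 0.87 for Hlf, 0.80 for Lrp4, 0.76 for Trp53inp1, 0.72 for Abcc4, 0.64 for Tatdn2 and 0.59 for Kif5c. It was negative for Gadd45a (-0.81), Prkg2 (-0.72) and Vegfc (-0.60). The size of the difference for Cyp1a1 and Tiparp rests in part on c35 DMSO replicates 1 and 2. Their c35 log2 fold changes were -0.96 and -0.54 with all arrays. Without those 2 arrays they were 1.34 and 0.12, with 1 control array left. Hlf, Lrp4, Tatdn2, Kif5c and Prkg2 were named for the size of their c35 values. Abcc4, Trp53inp1 and Gadd45a were named for having the lowest c35 p of a gene list. The c35 values of all these genes enter the difference, so that theirs, and the count of 20, are descriptions only. Without c35 DMSO replicates 1 and 2 the number of probe sets was 62, with a single control array left and wider intervals.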

How the results depend on the processing

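With 0 calls for either ligand in c35 cells as the base, the count stayed 0 with the 9 c35 arrays in 3 groups (lowest adjusted p = 0.118 from limma). It also stayed 0 with the F test, no trend, a robust prior, quantile normalization and median centring. The count was 0 too with the signal filter, 1 value per gene and the replicate block (lowest adjusted p = 0.932 from limma with the block). It was 1 with the 9 arrays in 2 groups, 1 with the Actb difference as a covariate and 12 with array weights (5 higher, 7 lower, among them Ptgds, Prkg2 and Zc3hav1 with adjusted p = 0.0453), which gave 4 for TCDD alone. Array weights were lowest in c35 cells for BaP replicate 2 (0.442) and DMSO replicate 3 (0.669). The stricter call rule also gave 0 calls in c35 cells, which was fixed in advance, since it was applied to the same fit as the base. With single arrays left out the counts ran from 0 to 12 for either ligand (3 without wild-type DMSO replicate 1, among them Prkg2 and Hnrnpa1; 10 without DMSO replicate 3 in the c35 arrays alone), 0 to 2 for TCDD, 0 to 6 for BaP (5 in the model of 18 arrays) and 0 to 0 for TCDD against BaP, and the calls in c35 cells other than these 3 came without c35 DMSO replicate 3. Without DMSO replicates 1 and 2, with or without BaP replicate 3, 1 probe set was called for either ligand, TCDD and BaP, each time that of Pitpnc1 (0.97 and 0.96 for either ligand), with DMSO replicate 3 as the lone control and assumed to vary like the other groups. At an unadjusted p below 0.05 the counts were 2376, 2244, 1827 and 1168 for either ligand, TCDD, BaP and TCDD against BaP in c35 cells, 6955 in wild-type cells and 4526 for the difference between the lines. The 286 calls in wild-type cells became 90, and the 238 for the difference 102, with 1 value per gene. They ran from 197 to 638 and from 159 to 302 with single arrays left out (638 without wild-type DMSO replicate 2, 453 without replicate 3), and the difference fell to 62 without c35 DMSO replicates 1 and 2 and 74 without BaP replicate 3 as well. The share of intervals within 1.5-fold was 95.7% to 99.1% with single arrays left out, and 86.3% and 84.2% without DMSO replicates 1 and 2 and without BaP replicate 3 as well. The replicate block gave 284 calls in wild-type cells and 230 for the difference, and left 0 calls for TCDD and for BaP. Same-numbered c35 arrays did not deviate together (correlations -0.05 to 0.12). Of 2713 values of the 68 named genes under 40 alternatives 112 changed sign, in 27 genes and with 0 of them called, and 8 became called, of Prkg2, Ptgds, Zc3hav1 and Pitpnc1. The 21 probe sets raised in wild-type cells and lower in c35 cells became 42 with array weights. The causes were not tested, except that leaving arrays out widens the intervals by construction.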
